A study of Mus musculus with 12 samples.

Results

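The S100 genes that these libraries express at a testable level (S100a8, S100a9, S100a6, S100a11, S100a4, S100a13, S100a1 and S100a10) are described here over 4 groups of mouse HoxB8 cells. They were taken by symbol from a table of 24411 genes, of which 11578 had enough counts to test. A testable level was part of the choice, so it is no result that all 8 were tested. The 9 other S100 genes of the table were not. HoxB8 cells are bone marrow progenitors held in an immature state by a Hoxb8 that works only while estrogen is present, and estrogen had been removed from every culture 24 h before the RNA was taken. Each population also carried a pair of vectors, pMIG and pMICH, either empty or loaded.

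Asxl1-MT2/T618I cells carried a truncated Asxl1 in pMIG and the CSF3R receptor with the T618I change in pMICH. Empty/T618I cells carried the mutated receptor beside an empty pMIG, Asxl1-MT2/Empty cells carried the truncated Asxl1 beside an empty pMICH, and Empty/Empty cells carried both vectors empty. Each group had 3 libraries, named A, B and C as in the deposited columns. All groups share the immortalised line, the estrogen-dependent Hoxb8 and both vector backbones, and inserts were overexpressed beside the cells' own Asxl1 and Csf3r genes. Whether the line is a clone and which promoter drives the inserts are not given in the sources used here. The sources used here do not say whether the 3 libraries of a group had their own cultures. The p-values therefore rest on a library-to-library spread that could be purely technical.

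S100 proteins are small proteins that pair up, each with a pair of EF-hand loops. Most of them, though not all, bind calcium and then expose a surface that grips a target protein. S100A8 and S100A9 form calprotectin, the heterodimer that fills the cytosol of neutrophils, takes zinc and manganese from microbes, and signals through TLR4 and RAGE when it is released. The other members act mainly inside cells: S100A10 and S100A11 bind annexins, S100A4 binds nonmuscle myosin, S100A6 binds the ubiquitin ligase adaptor CacyBP, S100A1 acts on calcium pumps and channels of muscle, and S100A13 takes part in the unconventional release of FGF1 and interleukin 1 alpha.

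All 8 genes lie on chromosome 3 (GRCm38, GENCODE). S100a1 (chr3:90511034-90514392, minus strand) and S100a13 (chr3:90514435-90524581, plus strand) stand head to head with 43 bases between their starts. S100a4 (chr3:90603771-90606045), S100a6 (chr3:90612882-90624181), S100a8 (chr3:90668978-90670035) and S100a9 (chr3:90692632-90695721, minus strand) follow. S100a11 (chr3:93520488-93526287) and S100a10 (chr3:93555080-93564643) form another pair 2.82 Mb further on. S100a4 shares 302 exon bases with a gene model on the same strand, Gm42674, which has no row in the table, so how reads of that stretch were counted is not known.

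The 250 bases before the RefSeq start site (GRCm38.p6) are shown for S100a8, S100a9, S100a6 and S100a11, the members whose response to T618I differed with Asxl1-MT2. Capitals mark matches to the motifs searched. The windows are chr3:90668821-90669070 (plus) for S100a8, chr3:90695722-90695971 (minus) for S100a9, chr3:90612644-90612893 (plus) for S100a6 and chr3:93520246-93520495 (plus) for S100a11.
S100a8: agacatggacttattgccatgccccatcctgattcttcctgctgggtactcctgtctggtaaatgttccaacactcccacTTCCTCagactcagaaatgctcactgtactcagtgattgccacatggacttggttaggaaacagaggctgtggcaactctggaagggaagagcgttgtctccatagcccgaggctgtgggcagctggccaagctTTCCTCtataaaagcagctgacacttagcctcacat
S100a9: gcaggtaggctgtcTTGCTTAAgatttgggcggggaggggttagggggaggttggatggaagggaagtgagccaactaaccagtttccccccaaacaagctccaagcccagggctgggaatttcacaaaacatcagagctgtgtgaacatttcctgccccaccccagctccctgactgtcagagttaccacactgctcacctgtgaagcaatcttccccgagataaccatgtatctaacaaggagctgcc
S100a6: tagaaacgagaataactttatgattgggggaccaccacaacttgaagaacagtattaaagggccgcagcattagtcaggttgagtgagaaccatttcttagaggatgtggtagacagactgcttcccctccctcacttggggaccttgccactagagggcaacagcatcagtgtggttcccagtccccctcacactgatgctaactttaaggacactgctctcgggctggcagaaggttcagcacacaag
S100a11: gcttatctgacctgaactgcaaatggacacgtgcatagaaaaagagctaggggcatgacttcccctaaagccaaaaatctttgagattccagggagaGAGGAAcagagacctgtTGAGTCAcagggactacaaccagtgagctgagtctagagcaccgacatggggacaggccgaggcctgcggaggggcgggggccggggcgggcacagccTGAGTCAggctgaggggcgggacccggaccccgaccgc

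The motifs were a C/EBP-type word, TTGCNNAA, a STAT-type word, TTCNNNGAA, an AP-1-type word, TGANTCA, and a PU.1-type word, GAGGAA, each on both strands of the whole window of 300 bases that ends 50 bases into the gene. S100a8 held the PU.1-type word at positions -170 to -165 and -36 to -31 from its start, S100a9 held the C/EBP-type word at -236 to -229, and S100a11 held the AP-1-type word at -136 to -130 and -38 to -32 and the PU.1-type word at -153 to -148. S100a6 held none of the 4, and so no word was shared by all the members whose response to T618I differed with Asxl1-MT2. The PU.1-type word was also in S100a4, so 3 of the 7 members with a promoter entry held it, against 28.3% of the 32851 promoters in the reference table. The C/EBP-type, STAT-type and AP-1-type words were in 10.8%, 8.30% and 7.81% of those promoters and in 1, 0 and 1 of the 7. S100a10 had no entry.

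Library totals ran from 9341984 to 10252291 counts, and levels are CPM (counts divided by the library total, on a per-million scale) after scaling with TMM factors. Asxl1, as a check of the labels, was at 919 to 1086 CPM in Asxl1-MT2/T618I and 1678 to 1833 CPM in Asxl1-MT2/Empty, against 134 to 167 CPM in Empty/T618I and 116 to 125 CPM in Empty/Empty. Csf3r was at 967 to 1688 CPM in Asxl1-MT2/T618I, 386 to 456 CPM in Empty/T618I, against 253 to 320.4 CPM for Asxl1-MT2/Empty and 232 to 337 CPM for Empty/Empty. Hoxb8 was at 559 to 586 CPM in Asxl1-MT2/T618I and 242 to 332 CPM in Empty/T618I, against 646 to 769 CPM for Asxl1-MT2/Empty and 626 to 705 CPM for Empty/Empty. Its part in the S100 values was not tested. Whether reads of the constructs were counted to these genes is not given. For the third Empty/Empty title the genotype label names T618I, and nothing links titles to letters. Socs3, which restrains cytokine receptor signalling as a feedback inhibitor, was at 151 to 176 CPM in Empty/T618I and 11.9 to 13.8 CPM in Empty/Empty, so all 3 Empty/Empty libraries lay near 12 to 14 CPM. Markers of mature neutrophils moved with several results below. Of 14 such markers 13 were tested, and their summed level ran from 13110 to 17164 CPM in Asxl1-MT2/T618I, 2564 to 3091 CPM in Empty/T618I, against 1779 to 2500.02 CPM for Asxl1-MT2/Empty and 1415 to 2061 CPM for Empty/Empty. Csf3r, to which reads of the construct may have been counted, is among these markers in every comparison. So are the granule genes Lcn2, Ltf, Ngp and Camp.

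The calprotectin genes came first in level. Per kilobase of transcript in Asxl1-MT2/T618I, S100a9 was at 12811 ± 2859 CPM per kb and S100a8 at 9818 ± 2384, followed by S100a11 at 1085 ± 148, S100a6 at 198 ± 28.4, S100a1 at 53.1 ± 1.30, S100a13 at 39.2 ± 4.61, S100a10 at 11.5 ± 0.532 and S100a4 at 6.13 ± 3.80 (SD, n = 3). In Empty/Empty the order was different: S100a8 at 802 ± 205 CPM per kb and S100a9 at 735 ± 218 overlapped, S100a11 was at 507 ± 55.8, S100a1 at 81.6 ± 7.21, S100a13 at 27.6 ± 2.06, S100a10 at 16.2 ± 1.55, S100a6 at 10.4 ± 0.434 and S100a4 at 2.58 ± 0.865. S100a6 was thus the second lowest of the 8 in Empty/Empty and the fourth highest in Asxl1-MT2/T618I. The 9 other S100 genes with a row did not pass the low-count filter. S100b and S100z had 0 counts in all 12 libraries, which allows up to 0.0252 CPM, and S100a2, S100a3, S100a5, S100a7a, S100a14, S100a16 and S100g had 2 to 11 counts each over the 12 libraries.

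**Figure D1:**
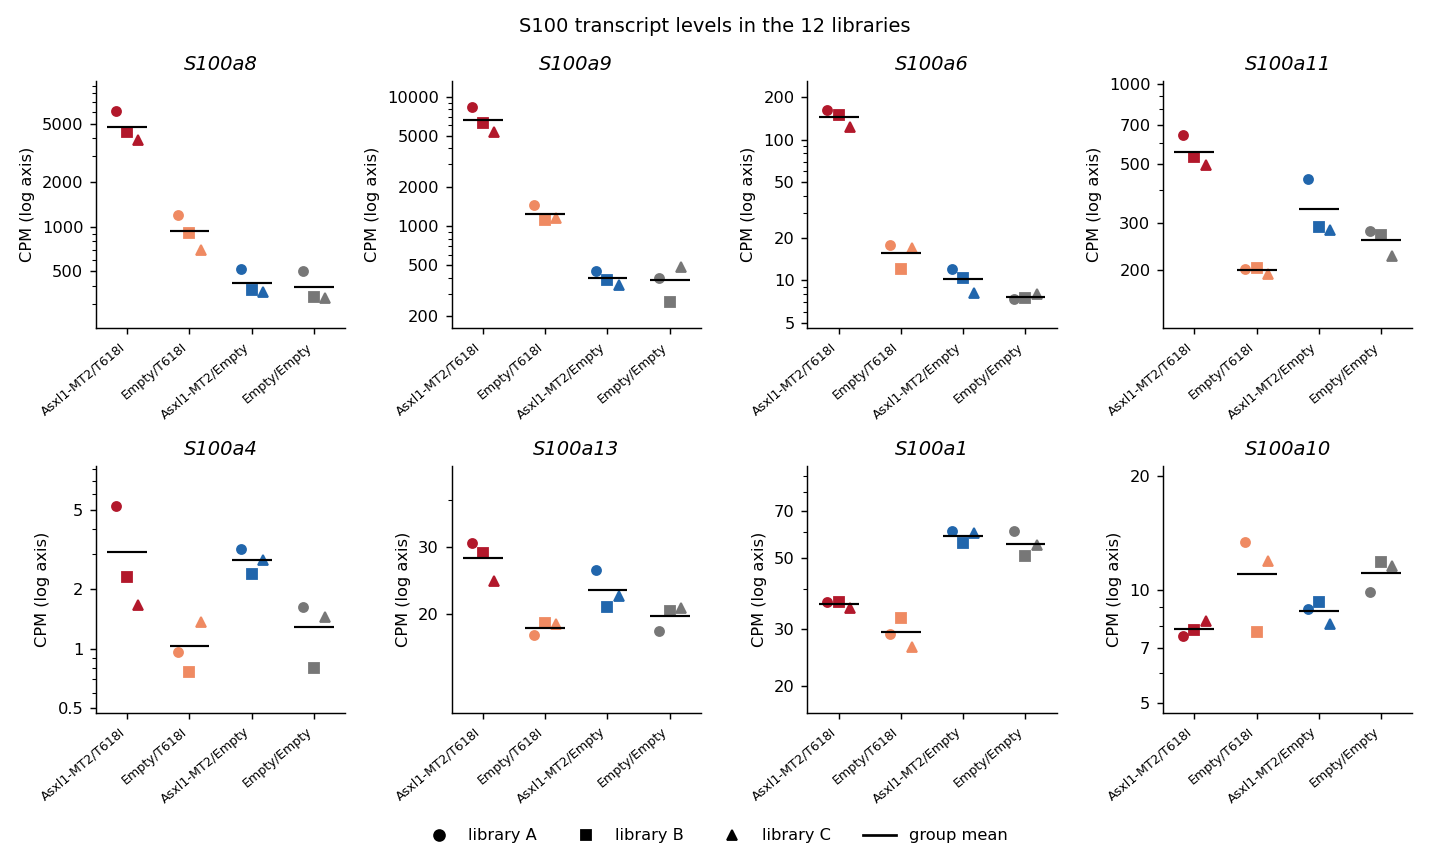
CPM of the 8 S100 genes in each library, on log axes that differ between panels; symbols are libraries A, B and C, and lines are group means (n = 3). S100a8, S100a9 and S100a6 stand far above the other groups in Asxl1-MT2/T618I, where S100a6 reached 123 to 164 CPM, against 12.1 to 17.9 CPM in Empty/T618I.

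Adding Asxl1-MT2 to T618I moved 8 of 8 members past the threshold, an adjusted p under 0.05 in edgeR's quasi-likelihood test. S100a6, S100a9, S100a8, S100a4, S100a11, S100a13 and S100a1 were higher in Asxl1-MT2/T618I than in Empty/T618I, and S100a10 was lower. Over all genes tested 43.9% were called in this comparison, 25.4% as higher and 18.5% as lower. The members' median log2 fold change was 1.52, against 0.01 for all genes. Counting changes of 1 log2 unit or more in either direction, 5 of 8 members were called, beside 9.98% of all genes.

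S100a8 was at 6070.4, 4400.2 and 3844 CPM in the Asxl1-MT2/T618I libraries A to C, and at 1203, 910.7 and 699 CPM in Empty/T618I. The groups did not overlap, and the log2 fold change was 2.35 ± 0.216 (SE; edgeR adjusted p = 2.14e-07). S100a9 was at 8270.1, 6319 and 5358 CPM in Asxl1-MT2/T618I and at 1444, 1114 and 1165 CPM in Empty/T618I, again without overlap, with a log2 fold change of 2.42 ± 0.193 (edgeR adjusted p = 4.59e-08). How many of all genes had no overlap here was not counted. By raw count, S100a9 was the gene with rank 2, 4 and 4 of the whole table in Asxl1-MT2/T618I libraries A, B and C, against ranks 40, 53 and 53 in Empty/T618I. S100a8 and S100a9 together took 1.07 ± 0.224% of all counts in Asxl1-MT2/T618I and 0.223 ± 0.0420% in Empty/T618I (SD, n = 3).

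S100a6, which encodes calcyclin, had the largest fold change of the 8. It was at 164, 149 and 123 CPM in Asxl1-MT2/T618I and at 17.9, 12.1 and 17.0 CPM in Empty/T618I, a log2 fold change of 3.21 ± 0.146 (edgeR adjusted p = 4.62e-10) and rank 2 by p of the 11578 genes. S100a11 was at 639, 529 and 495 CPM in Asxl1-MT2/T618I and at 202, 203 and 194 CPM in Empty/T618I, with a log2 fold change of 1.47 ± 0.144 (edgeR adjusted p = 4.14e-07). The spread of the 3 Empty/T618I libraries, 199.8 ± 4.98 CPM, was small beside that difference.

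S100a13 and S100a4 were also higher. S100a13 was at 30.8, 28.9 and 24.4 CPM in Asxl1-MT2/T618I and at 17.6, 18.9 and 18.8 CPM in Empty/T618I (log2 fold change 0.60 ± 0.119, edgeR adjusted p = 0.000594). S100a4 had 49, 22 and 16 counts in Asxl1-MT2/T618I and 10, 8 and 13 counts in Empty/T618I (log2 fold change 1.56 ± 0.421, edgeR adjusted p = 0.00634). Its value rests in part on Asxl1-MT2/T618I library A: without it the log2 fold change was 0.94 and the edgeR adjusted p 0.0702.

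S100a1 and S100a10 were the members with the weakest calls. S100a1 was at 36.4, 36.4 and 34.9 CPM in Asxl1-MT2/T618I and at 29.0, 32.6 and 26.5 CPM in Empty/T618I, a log2 fold change of 0.29 ± 0.0986 (edgeR adjusted p = 0.0251) that missed the threshold in 9 of 22 alternative settings and turned negative in 2 more. S100a10 was at 7.54, 7.83 and 8.26 CPM in Asxl1-MT2/T618I and at 13.4, 7.73 and 11.9 CPM in Empty/T618I, so library B of Empty/T618I lay within the range of the other group. Its log2 fold change was -0.48 ± 0.179 (edgeR adjusted p = 0.0388), and the call was lost in 7 of 22 settings, among them the fits without Empty/T618I library A (edgeR adjusted p = 0.167), Empty/T618I library C, Asxl1-MT2/T618I library A or Asxl1-MT2/T618I library B.

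Beside these values, 13 of the 13 neutrophil markers tested were also higher in Asxl1-MT2/T618I than in Empty/T618I, with a median log2 fold change of 2.77. Of 12 monocyte and macrophage markers 9 were tested and 8 were higher, and their summed level was 921 to 1248 CPM in Asxl1-MT2/T618I and 511 to 558 CPM in Empty/T618I. Other sets fell: 6 of 9 mast cell and basophil markers were lower and 0 higher, with a median log2 fold change of -0.54. Of 6 tested megakaryocyte and erythroid markers 4 were lower and 0 higher. Of 6 stem and progenitor markers 3 were lower and 1 higher, and 0 of 5 primary granule markers were called. The part of these cell types in the S100 values was not tested. In bulk RNA, more cells of a type and more RNA per cell cannot be told apart.

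**Figure D2:**
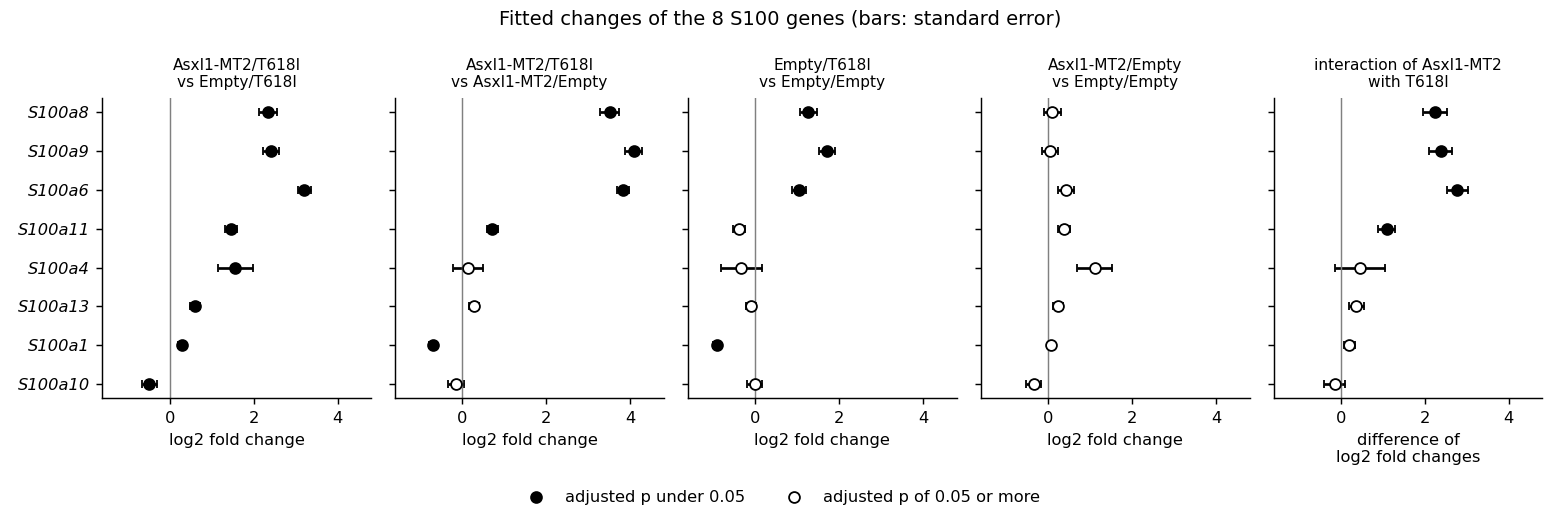
Log2 fold change of each S100 gene in 4 comparisons, and in the right panel the difference between the T618I effect with and without Asxl1-MT2; bars are the standard error, and filled points passed an adjusted p of 0.05. S100a8, S100a9 and S100a6 lie above 2 in the first and last panels, and in the panel of Asxl1-MT2/Empty against Empty/Empty all points are open.

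T618I on its own changed 4 of 8 members, 3 higher and 1 lower, while 33.5% of all genes tested were called (17.6% higher and 15.9% lower). With changes of 1 log2 unit or more the members called were 3 of 8, beside 11.6% of all genes. S100a8 was at 1203, 910.7 and 699 CPM in Empty/T618I and at 505, 334 and 331 CPM in Empty/Empty (log2 fold change 1.27 ± 0.210, edgeR adjusted p = 0.000142). S100a9 was at 1444, 1114 and 1165 CPM in Empty/T618I and at 398, 261 and 486 CPM in Empty/Empty (log2 fold change 1.70 ± 0.190, edgeR adjusted p = 1.91e-06). S100a6 was at 17.9, 12.1 and 17.0 CPM in Empty/T618I and at 7.35, 7.46 and 7.94 CPM in Empty/Empty (log2 fold change 1.04 ± 0.177, edgeR adjusted p = 0.000172). None of these 3 pairs of groups overlapped, and the share of all genes without overlap was not counted.

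S100a1 was lower. It was at 29.0, 32.6 and 26.5 CPM in Empty/T618I and at 60.4, 50.7 and 54.7 CPM in Empty/Empty, a log2 fold change of -0.91 ± 0.0962 (edgeR adjusted p = 1.01e-06). All 6 libraries with T618I lay between 26.5 and 36.4 CPM and all 6 without it between 50.7 and 60.4 CPM. S100a13, whose start lies 43 bases from that of S100a1, was at 18.4 ± 0.724 CPM in Empty/T618I and 19.7 ± 1.48 CPM in Empty/Empty (SD, n = 3; log2 fold change -0.10 ± 0.122).

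S100a11 was lower in 3 of 3 Empty/T618I libraries, at 202, 203 and 194 CPM, than in Empty/Empty, at 281, 269.7 and 227 CPM, but missed the threshold (log2 fold change -0.37 ± 0.142, edgeR adjusted p = 0.0517) and passed it in 10 of 22 other settings, DESeq2 among them (adjusted p = 0.0421). S100a4 and S100a10 had log2 fold changes of -0.33 ± 0.480 and -0.01 ± 0.172. The members' median was -0.06, against 0.00 for all genes. With an Empty/Empty library counted as Empty/T618I, because of the disputed genotype label, 0, 0 or 1 members were called. The 3 Empty/Empty libraries had Socs3 at 11.9 to 13.8 CPM and the mast cell gene Mcpt1 at 0.0994 to 0.201 CPM. The Empty/T618I libraries they were added to had Socs3 at 151 to 176 CPM and Mcpt1 at 567 to 1439 CPM. Of the 13 neutrophil markers 9 were higher and 1 was lower with T618I alone, and 9 of 9 mast cell and basophil markers were higher, at a summed 3445 to 6184 CPM in Empty/T618I and 1153 to 1345 CPM in Empty/Empty. Like S100a1, 5 of 5 primary granule markers were lower with T618I alone (median log2 fold change -0.67), at a summed 15768 to 18948 CPM in Empty/T618I and 33466 to 42496 CPM in Empty/Empty. Their part in the S100 values was not tested.

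Asxl1-MT2 on its own called 0 of 8 members, as did DESeq2, and 3 had an unadjusted p under 0.05 in edgeR, as 10.9% of all genes did. DESeq2 called 2.59% of all genes. Over all genes 1.86% were called (1.24% higher and 0.622% lower), and 0.700% by 1 log2 unit or more. S100a8 was at 522, 375 and 360.4 CPM in Asxl1-MT2/Empty and at 505, 334 and 331 CPM in Empty/Empty, and S100a9 was at 449.7, 382 and 350.3 CPM in Asxl1-MT2/Empty and at 398, 261 and 486 CPM in Empty/Empty. Both pairs of groups overlapped, with log2 fold changes of 0.11 ± 0.208 and 0.05 ± 0.186.

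The 3 members with an unadjusted p under 0.05 were S100a4, S100a11 and S100a6. S100a4 had 32, 24 and 28 counts in Asxl1-MT2/Empty and 16, 8 and 14 counts in Empty/Empty, a log2 fold change of 1.11 ± 0.409 (edgeR adjusted p = 0.264). S100a11 was at 439.8, 291 and 282 CPM in Asxl1-MT2/Empty and at 281, 269.7 and 227 CPM in Empty/Empty (log2 fold change 0.38 ± 0.141, edgeR adjusted p = 0.265), with library A far above the other libraries of its group. S100a6 was at 12.1, 10.5 and 8.18 CPM in Asxl1-MT2/Empty and at 7.35, 7.46 and 7.94 CPM in Empty/Empty (log2 fold change 0.43 ± 0.187, edgeR adjusted p = 0.385). At 8 to 49 counts a library, changes of S100a4 below the spread seen here were not detectable at this depth.

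The effect of T618I was larger with Asxl1-MT2 than without it for 4 of 8 members, by a test of the difference itself (19.6% of all genes were called, 14.1% higher and 5.51% lower, and 6.18% with an absolute difference of at least 1). This test uses all 4 groups, and the comparisons above share libraries with it. The difference of log2 fold changes was 2.78 ± 0.239 for S100a6 (edgeR adjusted p = 3.54e-06, rank 5 by p of 11578 genes), 2.37 ± 0.265 for S100a9 (edgeR adjusted p = 1.82e-05), 2.24 ± 0.296 for S100a8 (edgeR adjusted p = 6.68e-05) and 1.09 ± 0.200 for S100a11 (edgeR adjusted p = 0.000999). S100a13, S100a4, S100a1 and S100a10 had differences of 0.37 ± 0.169, 0.46 ± 0.600, 0.21 ± 0.135 and -0.14 ± 0.251, which did not pass. The members' median was 0.77, against 0.02 for all genes. All 13 tested neutrophil markers passed this test too, each as higher, and 7 of 9 monocyte and macrophage markers did, as higher; their part in the S100 values was not tested.

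The effect of T618I in cells with Asxl1-MT2 enters that difference. In Asxl1-MT2/T618I against Asxl1-MT2/Empty, 5 of 8 members were called, 4 higher and 1 lower, beside 49.8% of all genes (26.9% higher and 22.8% lower). Counting changes of 1 log2 unit or more, it was 3 of 8 members, beside 14.9% of all genes. S100a9 averaged 6649 ± 1484 CPM in Asxl1-MT2/T618I and 394 ± 50.8 CPM in Asxl1-MT2/Empty, S100a8 averaged 4772 ± 1159 and 419 ± 89.4 CPM in those groups, and S100a6 averaged 145 ± 20.7 and 10.2 ± 1.95 CPM (SD, n = 3). The log2 fold changes were 4.08 ± 0.208, 3.51 ± 0.227 and 3.82 ± 0.154 (edgeR adjusted p = 5.70e-11, 1.09e-09 and 3.99e-12). S100a11 rose (0.72 ± 0.141, edgeR adjusted p = 0.000442) and S100a1 fell (-0.70 ± 0.0949, edgeR adjusted p = 9.62e-06). In this comparison 13 of 13 tested neutrophil markers were higher (median log2 fold change 3.40), 9 of 9 mast cell and basophil markers were higher (2.98) and 5 of 5 primary granule markers were lower (-0.89), and their part in the S100 values was not tested. For S100a11 the order of groups was therefore Asxl1-MT2/T618I at 554 ± 75.4 CPM, Asxl1-MT2/Empty at 337 ± 88.8, Empty/Empty at 259 ± 28.5 and Empty/T618I at 199.8 ± 4.98, and neither the middle pair nor the lowest pair differed past the threshold.

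Against Empty/Empty, Asxl1-MT2/T618I had 6 members higher and 2 lower of 8, beside 50.6% of all genes called (27.5% higher and 23.1% lower), and 5 of 8 by 1 log2 unit or more, beside 14.9% of all genes. S100a6 had the largest log2 fold change, 4.26 ± 0.160 (edgeR adjusted p = 1.98e-12), followed by S100a9 at 4.12 ± 0.209 and S100a8 at 3.61 ± 0.228. S100a1, at -0.62 ± 0.0952, and S100a10, at -0.49 ± 0.179, were lower. Here too 13 of 13 neutrophil markers were higher, 8 of 9 mast cell and basophil markers were higher and 4 of 5 primary granule markers were lower, and their part was not tested. S100a10 was at 7.88 ± 0.365 CPM in Asxl1-MT2/T618I and 11.1 ± 1.06 CPM in Empty/Empty (SD, n = 3), without overlap, but its call (edgeR adjusted p = 0.0302) was lost without Asxl1-MT2/T618I library A or B or Empty/Empty library B or C. S100a4 (1.24 ± 0.407, edgeR adjusted p = 0.0176) lost its call without Asxl1-MT2/T618I library A (0.62, edgeR adjusted p = 0.203) or Empty/Empty library B (0.98, edgeR adjusted p = 0.0803).

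S100A8 and S100A9 act as a heterodimer, so the balance of their transcripts was compared. There were 1.36, 1.44 and 1.39 S100a9 counts per S100a8 count in Asxl1-MT2/T618I libraries A to C and 1.201, 1.22 and 1.67 in Empty/T618I, against 0.861, 1.02 and 0.972 in Asxl1-MT2/Empty and 0.788, 0.781 and 1.47 in Empty/Empty. The 6 T618I libraries had the higher ratio by 0.52 on the log2 scale (two-sided exact permutation p = 0.0152, adjusted p = 0.0455 over 3 ratio comparisons). That family of 3 leaves out the same comparison without the letter C libraries, which was also run and is given below as an alternative. With 1 library left out, this adjusted p (exact permutation test) was 0.0649 to 0.0909 in 11 of 12 cases, so the call was lost, and it was 0.0130 without Empty/Empty library C. Library C of Empty/Empty lay inside the T618I range, and library C was also the highest of Empty/T618I. Between Asxl1-MT2/T618I and Empty/T618I the ratio differed by 0.05 (exact permutation p = 0.900), and between Empty/T618I and Empty/Empty by 0.48 (exact permutation p = 0.300), where 3 against 3 libraries cannot go below 0.1. Of all counts to the 8 members, S100a8 and S100a9 took 93.6 ± 0.583% in Asxl1-MT2/T618I, 88.6 ± 1.61% in Empty/T618I, against 65.0 ± 1.11% for Asxl1-MT2/Empty and 68.1 ± 5.14% for Empty/Empty.

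**Figure D3:**
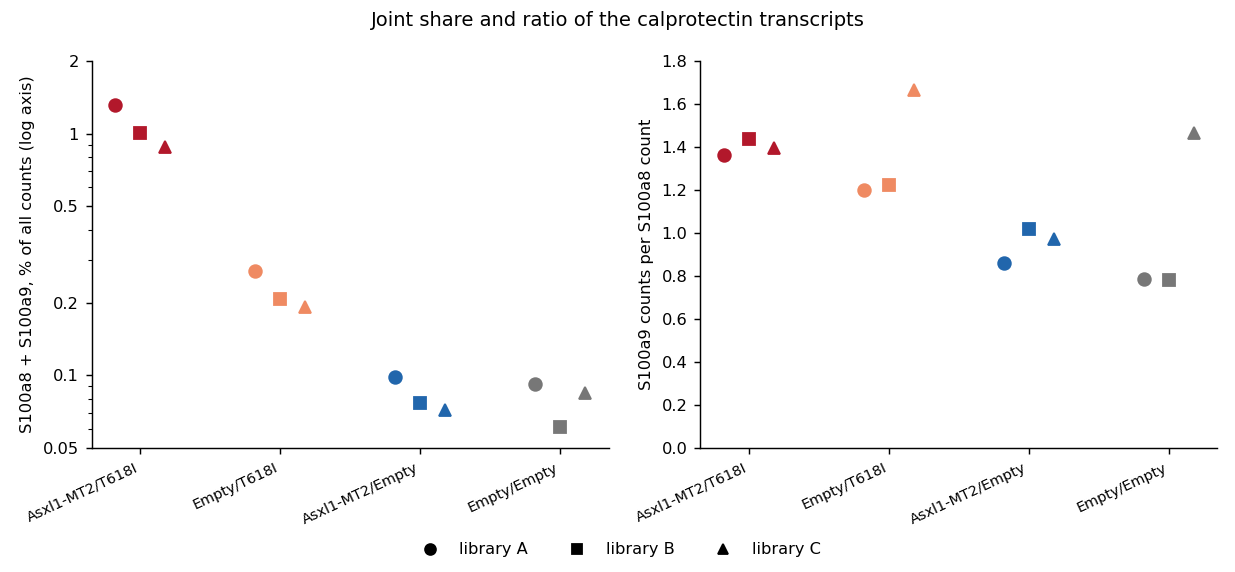
Left, S100a8 and S100a9 together as a percentage of all counts of a library, on a log axis; right, S100a9 counts per S100a8 count. The joint share is 0.882 to 1.32% in the 3 Asxl1-MT2/T618I libraries and 0.0608 to 0.0921% in Empty/Empty, and library C of Empty/Empty, at a ratio of 1.47, stands apart from its group.

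The neighbours of the chromosome 3 blocks that could be tested did not rise with the members. Of 21 protein-coding neighbours 16 had a row and 4 passed the low-count filter: Ints3, Ilf2, Snapin and Chtop, none of them an S100 gene. All 4 lie outside the run of S100 genes, on the side of S100a1. In no comparison was any of the 4 higher, and in the test of the difference none passed. In Asxl1-MT2/T618I against Empty/T618I, 1 of 4 was lower, Ilf2, with a median log2 fold change of -0.10. Within the block, S100a6 starts 56.1 kb from S100a8 and S100a9 starts 26.7 kb from it, while S100a1 and S100a13, the members of the block with the smallest changes in that comparison, both start 155 kb from it. S100a11, in the other block, has no tested neighbour other than S100a10. Pglyrp4, on the side of S100a9 and 57.9 kb from S100a8, had 34 counts over the 12 libraries and was not tested. Its mean was 0.871 CPM in Asxl1-MT2/T618I and 0.0984 CPM in Empty/T618I, against 0.132 CPM for Asxl1-MT2/Empty and 0.0688 CPM for Empty/Empty.

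**Figure D4:**
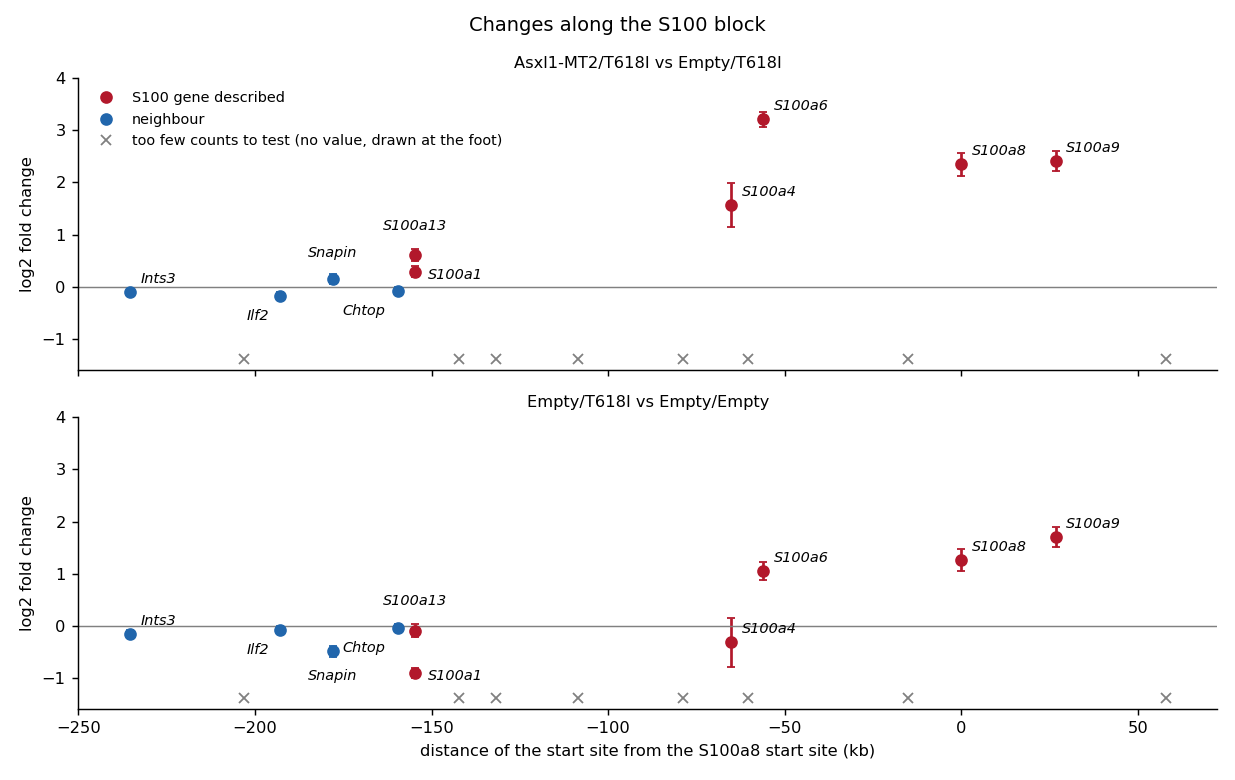
Log2 fold change (bars, standard error) against the distance of each start site from that of S100a8, for the block of S100a1 to S100a9. The 4 neighbours lie close to 0 in the upper panel, S100a6, S100a8 and S100a9 lie between 2.35 and 3.21, and crosses at the foot are genes with too few counts for a value.

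The annexin partners of S100a10 and S100a11 were examined as part of a list of 13 annexin-linked genes, of which 12 were tested. In Asxl1-MT2/T618I against Empty/T618I 9 were higher and 0 lower, beside 25.4% and 18.5% of all genes, with a median log2 fold change of 0.64. Anxa2, whose protein forms a heterotetramer with S100A10 at the plasma membrane, was at 293 ± 61.7 CPM in Asxl1-MT2/T618I and 97.0 ± 18.5 CPM in Empty/T618I (SD, n = 3; log2 fold change 1.596 ± 0.158, edgeR adjusted p = 4.72e-07), where S100a10 was lower. Plaur, the urokinase receptor, and Anxa11 rose by 1.37 ± 0.110 and 1.36 ± 0.112 on the log2 scale. Anxa1, named here because its protein is a known partner of S100A11, was at 2471 ± 82.0 CPM in Asxl1-MT2/T618I and 2029 ± 175 CPM in Empty/T618I (log2 fold change 0.28 ± 0.0836, edgeR adjusted p = 0.0111). With T618I alone 6 of 12 were higher and 2 lower, beside 17.6% and 15.9% of all genes, and Ahnak, a giant scaffold protein that binds the S100A10 and annexin A2 complex, went to 10.3 ± 5.16 CPM in Empty/T618I, against 0.541 ± 0.316 CPM in Empty/Empty (log2 fold change 4.22 ± 0.494). With Asxl1-MT2 alone, 1 of 12 was called, beside 1.86% of all genes, Anxa4 (0.68 ± 0.117, edgeR adjusted p = 0.00532). In the test of the difference 5 of 12 passed, each higher, beside 14.1% of all genes, led by Anxa2 at 1.28 ± 0.226.

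**Figure D5:**
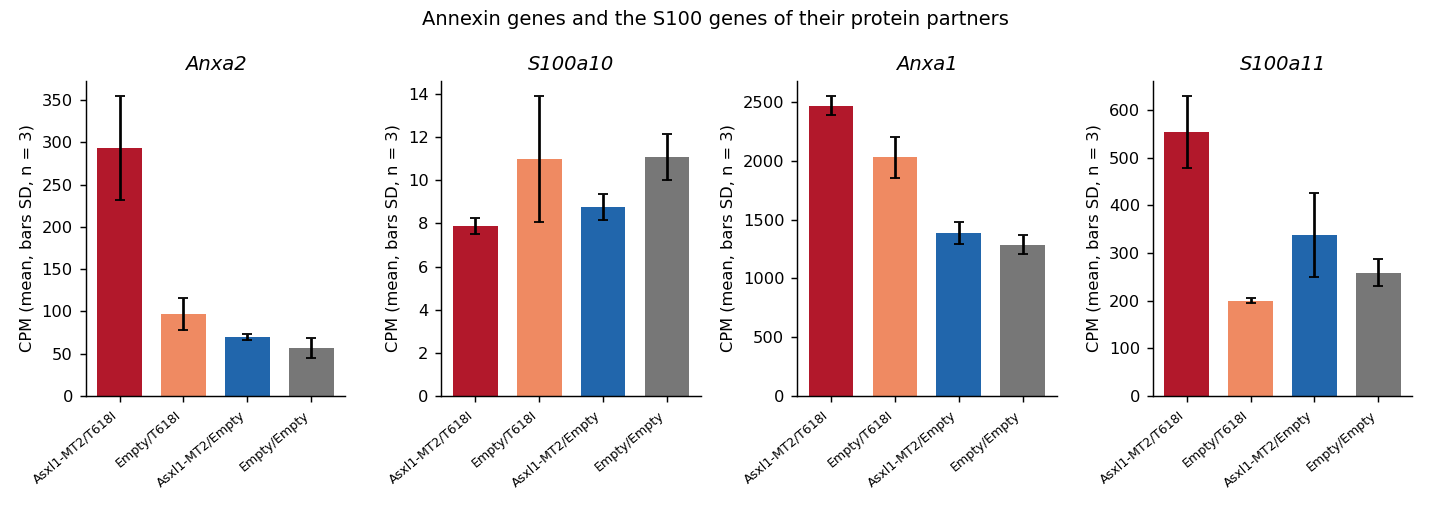
Mean CPM with SD (n = 3) of Anxa2 and S100a10, and of Anxa1 and S100a11, in the 4 groups. Anxa2 is highest in Asxl1-MT2/T618I, at 293 CPM, where S100a10 has its lowest mean, 7.88 CPM, and S100a11 is lowest in Empty/T618I, at 199.8 CPM.

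The next list held 10 genes linked to the sensing of released S100 proteins. They were receptors and co-receptors, the cytosolic adaptor gene Myd88, the macrophage marker Cd68, and Fpr1, which is not an established S100 receptor. Cd68 is also counted among the monocyte and macrophage markers above. Of these 9 were tested, and 6, Myd88 and Fpr1 among them, were higher and 0 lower in Asxl1-MT2/T618I than in Empty/T618I, beside 25.4% and 18.5% of all genes, with a median log2 fold change of 0.94. Fpr1, a receptor for bacterial formylated peptides, was at 89.9 ± 23.4 CPM in Asxl1-MT2/T618I and 8.55 ± 1.04 CPM in Empty/T618I (3.39 ± 0.178), and had 0 counts in the 3 Asxl1-MT2/Empty libraries. Cd33, a sialic acid-binding receptor reported to bind S100A9 in human cells, was at 371 ± 74.3 CPM in Asxl1-MT2/T618I and 128 ± 7.35 CPM in Empty/T618I (1.54 ± 0.139), and Ager, which encodes RAGE, was at 7.64 ± 0.628 CPM in Asxl1-MT2/T618I and 3.53 ± 0.616 CPM in Empty/T618I (1.11 ± 0.207). Tlr4 was at 52.4 ± 6.40 CPM in Asxl1-MT2/T618I and 60.2 ± 7.80 CPM in Empty/T618I (-0.20 ± 0.144) and did not pass. Its log2 fold change with T618I alone was 0.54 ± 0.146 (edgeR adjusted p = 0.00815). It was 1 of 5 genes of the list called there, each higher, with Cd33, Cd14, Myd88 and Fpr1, beside 17.6% of all genes, while 0 were called with Asxl1-MT2 alone, beside 1.86%. In the test of the difference Fpr1, Cd33, Cd68 and Ager passed, 4 of 9, each higher, beside 14.1% of all genes.

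Among 20 tested intracellular targets, 11 were higher and 5 lower in Asxl1-MT2/T618I than in Empty/T618I, beside 25.4% and 18.5% of all genes, with a median log2 fold change of 0.26. Pygl, the liver-type glycogen phosphorylase, was at 688 ± 128 CPM in Asxl1-MT2/T618I and 209 ± 34.0 CPM in Empty/T618I (1.72 ± 0.137), and Tpm4, a tropomyosin, was at 49.5 ± 18.4 and 22.3 ± 8.79 CPM in those groups (1.16 ± 0.242). The myosin target of S100A4, Myh9, rose by 0.63 ± 0.120 on the log2 scale, to 1431 ± 86.4 CPM in Asxl1-MT2/T618I, against 927 ± 183 CPM in Empty/T618I. The S100A6 partner Cacybp fell, with 170.4 ± 19.6 CPM in Asxl1-MT2/T618I and 226 ± 17.0 CPM in Empty/T618I (-0.41 ± 0.0982, edgeR adjusted p = 0.00301). With T618I alone 7 of 20 were higher and 0 lower, beside 17.6% and 15.9% of all genes. With Asxl1-MT2 alone 1 was higher and 1 lower, beside 1.24% and 0.622%. The test of the difference called 5 as higher and 4 as lower, beside 14.1% and 5.51%.

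A comparison list held 18 genes outside the S100 family, most of them EF-hand calcium-binding proteins or subunits of calpain, and 16 were tested. In Asxl1-MT2/T618I against Empty/T618I 9 were higher and 2 lower, beside 25.4% and 18.5% of all genes, with a median log2 fold change of 0.38, below the 1.52 of the S100 members. The difference between the lists was not tested. Lsp1, a leukocyte actin-binding protein, was at 225 ± 73.1 CPM in Asxl1-MT2/T618I and 17.5 ± 2.45 CPM in Empty/T618I (3.68 ± 0.187), and Actn1, an actinin, was at 437 ± 59.3 and 115 ± 9.10 CPM in those groups (1.92 ± 0.109). With T618I alone 7 of 16 were higher and 0 lower, beside 17.6% and 15.9% of all genes. With Asxl1-MT2 alone 1 was higher and 0 lower, beside 1.24% and 0.622%. The test of the difference called 7 of 16 as higher and 1 as lower, beside 14.1% and 5.51%, where 4 of 8 S100 members passed.

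Of 10 factors known to act on S100a8 and S100a9 in myeloid cells, 7 were higher and 2 lower in Asxl1-MT2/T618I than in Empty/T618I, beside 25.4% and 18.5% of all genes. Cebpe, the C/EBP factor of late granulocytes, was at 267 ± 18.5 CPM in Asxl1-MT2/T618I and 131 ± 11.3 CPM in Empty/T618I (1.02 ± 0.111), and Cebpb was at 332 ± 36.9 and 172 ± 10.96 CPM in those groups (0.94 ± 0.148). The histone demethylase gene Kdm6b was at 170.3 ± 17.3 CPM in Asxl1-MT2/T618I and 91.1 ± 6.30 CPM in Empty/T618I (0.90 ± 0.0922), and Klf5 had a log2 fold change of 0.83 ± 0.224. With T618I alone 5 were higher and 2 lower, beside 17.6% and 15.9% of all genes, with Cebpe among the lower ones (-0.87 ± 0.111, edgeR adjusted p = 9.40e-06). With Asxl1-MT2 alone 0 were called, beside 1.86% of all genes. The test of the difference called 5 of 10, each higher, beside 14.1% of all genes: Cebpe, Kdm6b, Cebpd, Spi1 and Stat3.

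Genes with the pattern most like each member were found by the root mean square difference of log2 CPM, each gene centred on its mean over the 12 libraries, which is a description of these libraries. Nearest to S100a8 was Lcn2, an iron-siderophore-binding granule protein, at a difference of 0.201, followed by Rasgrp4 at 0.225 and Grina at 0.248. Nearest to S100a9 were Gm5483 at 0.201, Cybb, the catalytic subunit of the phagocyte NADPH oxidase, at 0.219 and the Src-family kinase gene Fgr at 0.224. S100a6 was closest to Padi4, the enzyme that citrullinates histones in neutrophils, at 0.271, then to Smox at 0.320 and Il1f9 at 0.327. S100a11 had a different set, Crat at 0.105, Ano10 at 0.126 and the progranulin gene Grn at 0.134. For S100a1 it was Foxo4 at 0.108, for S100a13 Ugp2 at 0.0724, for S100a4 Casp6 at 0.386 and for S100a10 Wdr92 at 0.139.

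Among the members themselves, the pairs with the closest patterns were S100a11 with S100a13, at 0.346, S100a8 with S100a9, at 0.357, and S100a8 with S100a6, at 0.413. The farthest pair was S100a9 with S100a1, at 2.01. The smallest differences are found more easily between genes that vary little, and the root mean square deviation of a member from its own mean was 0.254 for S100a13 and 1.70 for S100a9.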

How the data were processed

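The authors deposited raw counts per gene symbol, 1 column per library. Trimmomatic, STAR and DESeq2 are named in the submitters' processing notes, without versions or roles, with mm10 as the build. The counting tool, annotation and strand setting are not given in the sources used here. Groups came from titles. Genes were kept with filterByExpr of edgeR 4.0.16 (99.94% of the counts), scaled with TMM (factors 0.919 to 1.03), and fitted with a mean for each of 4 groups over 12 libraries by quasi-likelihood in R 4.3.3, a script tested on simulated data. Benjamini-Hochberg adjustment ran over all 11578 genes tested. CPM are computed from these counts, and floors cover counting error only. The members, the gene lists and the tests were chosen with earlier results of these data known. Named list genes are those with the largest changes among the called, at most 4 per list and comparison; others were named for their known role, after their values were seen. Alternatives were DESeq2 1.42.0, other scalings, no filter, fewer libraries, a replicate block and relabelled libraries. Protein sequences were not used here.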

Additional observations from a re-analysis of the deposited data

Results flagged for a closer look

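For 4 members the effect of T618I differed between cells with and without Asxl1-MT2, by edgeR's test of the interaction. The difference of log2 fold changes was 2.24 for S100a8, 2.37 for S100a9, 2.78 for S100a6 and 1.09 for S100a11. Of these 4, S100a11 had T618I effects of opposite signs, 0.72 with Asxl1-MT2 and -0.37 without it, and the second value did not pass the threshold. Groups of 3 libraries were not examined for outlying samples.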

How the results depend on the processing

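Over 22 alternative settings, 990 of 1048 values of single members kept their side of the threshold. Some of the 990 changed sign, each of them uncalled in both fits. The log2 fold change of S100a8 with Asxl1-MT2 alone, for example, ran from -0.083 to 0.335. S100a8, S100a9, S100a6 and S100a11 kept their calls in every setting run for Asxl1-MT2/T618I against Empty/T618I, Asxl1-MT2/Empty and Empty/Empty, and S100a8, S100a9 and S100a6 did so in the test of the difference. Counting an Empty/Empty library as Empty/T618I had the largest effect. The 4 calls of Empty/T618I against Empty/Empty became 0, 0 and 1 for libraries A, B and C. Over all genes the 3878 calls became 0, 0 and 995. The 8 calls of Asxl1-MT2/T618I against Empty/Empty became 5 for library C, where the 5860 calls over all genes became 4337. The log2 fold change of S100a1 in Asxl1-MT2/T618I against Empty/T618I became -0.062 with library A and -0.0013 with library C so counted, and the S100a11 difference no longer passed with library A (edgeR adjusted p = 0.0757) or B (0.0591). The 8 calls of Asxl1-MT2/T618I against Empty/T618I ranged from 5 to 8 with 1 library left out, 5 without Asxl1-MT2/T618I library A. Over all genes the 5082 calls became 4029 without that library. The log2 difference of the S100a9 to S100a8 ratio ranged from 0.46 to 0.64 with 1 library left out and was 0.60 without the letter C libraries (exact permutation p = 0.0286, adjusted p = 0.0857), settings chosen after seeing the data. Same-letter libraries correlated at -0.0606 to 0.22, over 0.1 in 7 of 18 pairs, and others at -0.226 to 0.135, over 0.1 in 4 of 36. The same letter correlated best in 19 of 36 cases, so a shared source is hinted at for some libraries but is not given by the labels or seen in every pair. With the letter as a replicate block, the standard error of S100a8 with T618I alone was 0.0765, S100a11 passed there (edgeR adjusted p = 0.0074), 5 members were called in Empty/T618I against Empty/Empty, in place of 4, and 8 in Asxl1-MT2/T618I against Empty/T618I. Over all genes 4285 and 5444 were called in those comparisons with the block, in place of 3878 and 5082. The cause of these changes was not tested. Depth limits S100a4, with 8 to 49 counts a library.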

Other observations

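S100pbp, which encodes an S100-binding protein and is no S100 gene itself, fell when Asxl1-MT2 was added to T618I, with 63, 84 and 66 counts in Asxl1-MT2/T618I and 109, 110 and 136 in Empty/T618I (log2 fold change -0.65 ± 0.169, edgeR adjusted p = 0.00479). Library A was the highest of its group for S100a8 in 4 of 4 groups. The ratio of S100a6 to S100a11 counts was 0.248 to 0.282 in Asxl1-MT2/T618I, 0.0596 to 0.0886 in Empty/T618I, 0.0274 to 0.0360 in Asxl1-MT2/Empty and 0.0262 to 0.0350 in Empty/Empty.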
